A study of Mus musculus with 3 samples.

Results

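The 129 allele of the *Sox2* control region (SCR) was active in both populations described here, and the populations differed in whether the SCR on the other homolog was silenced. The cells were 129/CAST F1 hybrid mouse embryonic stem cells (mESCs) of the methylation reporter line, whose SCR holds *Snrpn-tdTomato* on the 129 homolog and *Snrpn-eGFP* on the Castaneus (CAST) homolog, reporters that are silenced by CpG methylation. Every population carried both reporters, was grown in serum-free medium with LIF and inhibitors of MEK and GSK3-β, and received no further treatment. FACS gave 129ON/CASTON cells, with both reporters expressed, and 129ON/CASTOFF cells, in which only the 129 reporter was expressed. A further population, 129OFF/CASTON, supplied inactive 129 alleles as a reference. The populations are sorted fractions of 1 reporter line, in which silencing arose stochastically, and the number of clones behind that line is not given in the sources used here. The members are reads of the 129 allele with a methylation call at all 6 SCR CpGs of the amplicon, called complete reads below. There were 36951 of them in 129ON/CASTOFF cells, of 37666 reads with any call, and 21740 in 129ON/CASTON cells, of 22171. Together they make up 58691 of the 88677 complete reads of the series. Each population was 1 library, so there is no replicate error, and every interval and p-value below covers counting error only. No molecular identifiers are described for the PCR products. Reads of 1 molecule can therefore be counted more than once, and even the counting error is then understated.

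The SCR is a cluster of enhancers that drives *Sox2*, a transcription factor gene of pluripotent cells, over a long distance. In mammals, DNA methylation falls mostly on the cytosine of CpG dinucleotides, and active enhancers are usually depleted of it while silenced ones often gain it. Methyltransferases can act on neighbouring CpGs of the same molecule, and each bisulfite read reports the state of all its CpGs on 1 DNA strand. Bisulfite turns unmethylated cytosine into uracil, read as thymine, so a cytosine that is still read as cytosine is called methylated. The calls used here cover CpGs only and give no conversion rate. Cytosine that escaped conversion therefore cannot be told from methylated cytosine.

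The 6 CpGs lie within 184 bp on chromosome 3 and are numbered 1 to 6 by position on the plus strand of GRCm38 (mm10). The stretch chr3:34759626-34759834 is printed to show their spacing, with each CpG in capitals. It is the C57BL/6J reference, a strain other than 129 and CAST.

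SCR, CpGs 1 to 6: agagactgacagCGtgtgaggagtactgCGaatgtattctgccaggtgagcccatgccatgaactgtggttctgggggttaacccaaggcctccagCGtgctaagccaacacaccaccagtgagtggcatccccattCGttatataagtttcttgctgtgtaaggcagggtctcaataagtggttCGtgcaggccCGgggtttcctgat

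Their cytosines lie at 34759638 (CpG 1), 34759654 (CpG 2), 34759722 (CpG 3), 34759763 (CpG 4), 34759811 (CpG 5) and 34759821 (CpG 6). The gaps between neighbours are 16, 68, 41, 48 and 10 bp, so that the closest pairs stand at the ends of the stretch, CpGs 1 and 2 at its start and CpGs 5 and 6 at its end. All 6 are intergenic in GENCODE M21, with 0 genes over them, and fall inside the SCR enhancer that RefSeq places at chr3:34755799-34762403.

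The methylation that was left on the active 129 allele was found at all 6 CpGs in both libraries, at levels that differed by CpG. CpGs 1 and 2, at the start of the stretch, were less methylated in 129ON/CASTOFF than in 129ON/CASTON cells, while CpGs 3, 5 and 6 were more methylated. CpG 2 was methylated in 8.67% of 36951 complete reads in 129ON/CASTOFF cells (Wilson 95% interval 8.39% to 8.96%) and in 15.1% of 21740 in 129ON/CASTON cells (14.6% to 15.6%). This is a difference of -6.40 percentage points, with a Newcombe 95% interval from -6.96 to -5.85. CpG 1 was methylated in 5.30% of reads (5.07% to 5.53%) against 8.94% (8.57% to 9.33%), a difference of -3.65 points (-4.09 to -3.21). CpGs 3, 5 and 6 moved the opposite way. CpG 3 rose from 4.96% (4.68% to 5.26%) in 129ON/CASTON cells to 6.99% (6.73% to 7.25%) in 129ON/CASTOFF cells, by 2.02 points (1.63 to 2.41). CpG 5 was methylated in 3.24% (3.02% to 3.49%) and 4.49% (4.28% to 4.70%) of reads, 1.24 points apart (0.925 to 1.56). CpG 6 was methylated in 3.50% (3.26% to 3.75%) and 4.86% (4.65% to 5.09%), 1.37 points apart (1.04 to 1.69). CpG 4 was the exception, with 4.11% (3.85% to 4.38%) in 129ON/CASTON and 3.80% (3.61% to 4.00%) in 129ON/CASTOFF cells. Its difference of -0.31 points did not pass the test (-0.64 to 0.02).

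**Figure D1:**
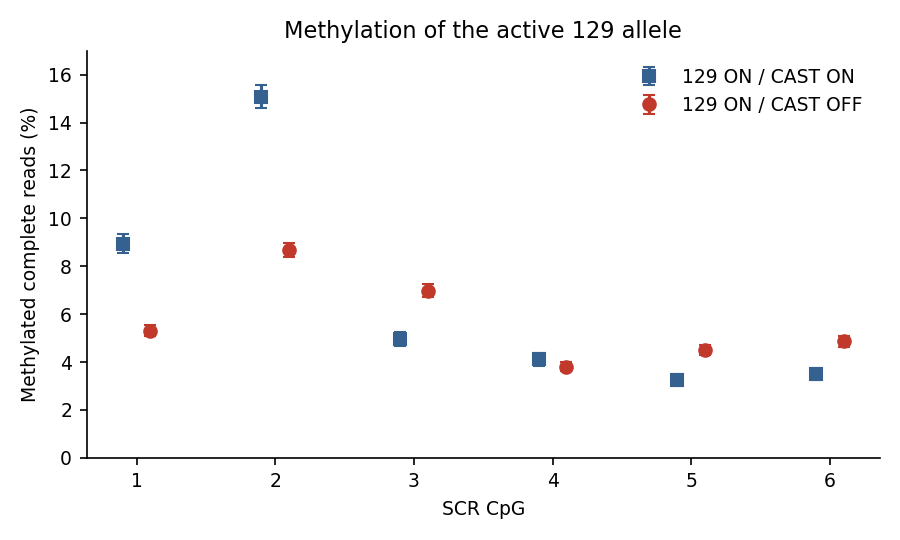
Percentage of complete reads methylated (vertical axis) at each of the 6 SCR CpGs (horizontal axis) on the active 129 allele, with Wilson 95% intervals, for 129ON/CASTON (squares) and 129ON/CASTOFF (circles), 1 library each. CpG 2 falls from 15.1% to 8.67%, CpG 3 rises from 4.96% to 6.99%, and the symbols at CpG 4 lie 0.31 points apart.

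Compared by Fisher's exact test (two-sided), 5 of the 6 CpGs differed between these libraries. For CpG 2 the adjusted p of the exact test was 5.08e-122 and for CpG 1 it was 1.96e-63. CpG 3 had an adjusted p of 3.73e-23, CpG 6 of 2.25e-15 and CpG 5 of 7.67e-14 in this exact test, while CpG 4 had 0.0674. These values were adjusted by Benjamini-Hochberg over the 24 tests of an allele in either single-active library against the same allele in 129ON/CASTON cells. Of those 24 tests, 95.8% passed, so passing is no mark of the active 129 allele, and the sizes and directions are what set its CpGs apart from each other. The tests compare these libraries and say nothing of how far replicate cultures would differ.

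The order of the CpGs changed with these shifts. In 129ON/CASTON cells the order from highest to lowest was CpG 2, 1, 3, 4, 6 and 5, and neighbours in that order had separate intervals except CpGs 6 and 5. In 129ON/CASTOFF cells it was CpG 2, 3, 1, 6, 5 and 4. There the intervals of CpGs 1 and 6 overlapped, as did those of CpGs 6 and 5. CpG 2 was the most methylated CpG of both libraries. Over all 6 CpGs, 5.68% of calls in complete reads were methylated in 129ON/CASTOFF and 6.64% in 129ON/CASTON cells. This difference of -0.95 points rests on CpG 2, since without it the shares were 5.09% and 4.95%, and the difference turned to 0.14 points. For scale, the inactive CAST allele of the same 129ON/CASTOFF library had 58.3% methylated calls, with CpG 2 at 0.770% and its other CpGs between 60.2% and 75.2%, and the inactive 129 allele of 129OFF/CASTON cells had 77.5%.

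Most complete reads of the active 129 allele were free of methylation, and most of the rest carried it at a single CpG. Reads with no methylated CpG made up 77.0% in 129ON/CASTOFF (76.5% to 77.4%) and 74.1% in 129ON/CASTON cells (73.5% to 74.7%). Reads with exactly 1 methylated CpG made up 15.9% (15.5% to 16.3%) and 18.0% (17.5% to 18.5%, adjusted p = 1.65e-10 from Fisher's exact test). Among reads with any methylation, reads with exactly 1 methylated CpG were 69.1% of 8508 in 129ON/CASTOFF and 69.4% of 5636 in 129ON/CASTON cells. Reads with 2 methylated CpGs were 4.94% (4.72% to 5.16%) and 5.09% (4.81% to 5.39%), and reads with 3 were 1.22% (1.11% to 1.33%) and 1.32% (1.17% to 1.48%). Neither of these classes passed the test (adjusted p = 0.441 and 0.335 from Fisher's exact test). The higher classes were rarer in 129ON/CASTOFF cells. Reads with 4 methylated CpGs were 0.474% (0.409% to 0.549%) there, against 0.612% (0.516% to 0.725%, adjusted p = 0.0380 from the exact test).

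The counts did not decline evenly toward fully methylated reads. In 129ON/CASTOFF cells there were 175 reads with 4 methylated CpGs, 48 with 5 and 131 with 6, and in 129ON/CASTON cells there were 133, 57 and 143. In both libraries the class with 5 was the smallest, and fully methylated reads were 2.73 and 2.51 times as many as reads with 5. On the inactive 129 allele this ratio was 1.55, from 6344 reads with 6 and 4093 with 5. Of the 7 classes, 5 passed the test between the libraries (adjusted over 28 tests), where 75% of all 28 passed. The share of unmethylated reads was 2.90 points higher in 129ON/CASTOFF cells (2.18 to 3.62, adjusted p = 4.65e-15 from the exact test), and this too rests on CpG 2, as do other classes. With CpG 2 left out, reads unmethylated at the other 5 CpGs made up 82.5% in 129ON/CASTOFF and 83.0% in 129ON/CASTON cells (difference -0.57 points, -1.20 to 0.07). Reads with 1 methylated CpG among those 5 made up 12.4% and 12.9% and no longer passed (adjusted p = 0.116, exact test). Reads with 2 among those 5 were then more frequent in 129ON/CASTOFF cells, 3.47% against 2.10% (1.37 points, 1.10 to 1.63, adjusted p = 6.21e-22, exact test).

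**Figure D2:**
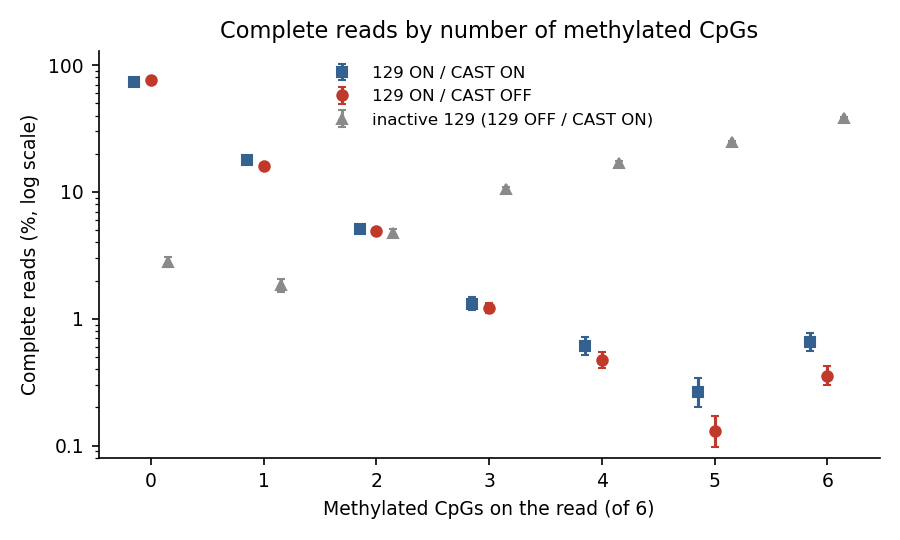
Percentage of complete reads (vertical axis, log scale) by how many of its CpGs a read had methylated (horizontal axis), with Wilson 95% intervals, for the active 129 allele of 129ON/CASTON (squares) and 129ON/CASTOFF (circles) cells and the inactive 129 allele of 129OFF/CASTON cells (triangles). On the active allele the shares drop from 74.1% and 77.0% at 0 to 0.262% and 0.130% at 5 and are higher again at 6, with 0.658% and 0.355%.

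When a read carried a single methylated CpG, that CpG was most often CpG 2, and CpG 3 took the place of CpG 1 as the next in 129ON/CASTOFF cells. CpG 2 alone was found on 2033 reads of 129ON/CASTOFF and 1950 reads of 129ON/CASTON cells, 5.50% and 8.97% of complete reads. It accounted for 34.6% of the 5881 reads with 1 methylated CpG in the former (33.4% to 35.8%) and 49.9% of the 3910 in the latter (48.3% to 51.4%). CpG 3 alone was found on 1545 and 442 reads, 4.18% and 2.03% of complete reads. This is 2.06-fold more often in 129ON/CASTOFF cells (95% interval 1.85 to 2.28). CpG 1 alone was found on 944 and 774 reads, 2.55% and 3.56%. These 3 patterns passed the test, with adjusted p = 3.89e-55 for CpG 2, 6.03e-46 for CpG 3 and 4.30e-11 for CpG 1 from Fisher's exact test. CpG 4 alone (1.53% and 1.44%), CpG 5 alone (0.871% and 0.810%) and CpG 6 alone (1.27% and 1.17%) did not pass (adjusted p = 0.499, 0.540 and 0.380, exact test).

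CpGs 5 and 6 were seldom methylated without company. Of reads methylated at CpG 5, 19.4% carried no other methylated CpG in 129ON/CASTOFF cells (17.6% to 21.4%) and 25.0% in 129ON/CASTON cells (21.9% to 28.3%), and for CpG 6 the shares were 26.2% and 33.4%. CpG 2 was the reverse, standing alone on 63.5% and 59.5% of the reads on which it was methylated. CpG 3 stood alone on 59.8% of its methylated reads in 129ON/CASTOFF cells (57.9% to 61.7%) and on 41.0% in 129ON/CASTON cells (38.1% to 43.9%). These shares are a description and were not tested.

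Read patterns, that is, which of the 6 CpGs were methylated on a read, were compared as a whole. Of 64 possible patterns, 63 occurred in at least 1 of the libraries, and the 45 with at least 10 reads in all were tested. In 129ON/CASTOFF cells 11 were more frequent and 14 less frequent, so that 55.6% of the tested patterns passed (adjusted over the 45 patterns). The 18 patterns below the minimum held 74 reads. Of the 10 patterns with any methylation that were more frequent, 0 were methylated at CpG 2, 7 at CpG 3, and 5 at both CpG 5 and CpG 6. Of the 14 that were less frequent, 9 were methylated at CpG 2, 7 of them also at CpG 1, 8 at CpG 3, and 1, the fully methylated read, at both CpG 5 and CpG 6. Patterns methylated at CpG 3 thus occurred in both directions. The counts were not set against the share of tested patterns that hold each CpG, so they are a description only. These groupings by CpG were chosen after the values were seen.

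**Figure D3:**
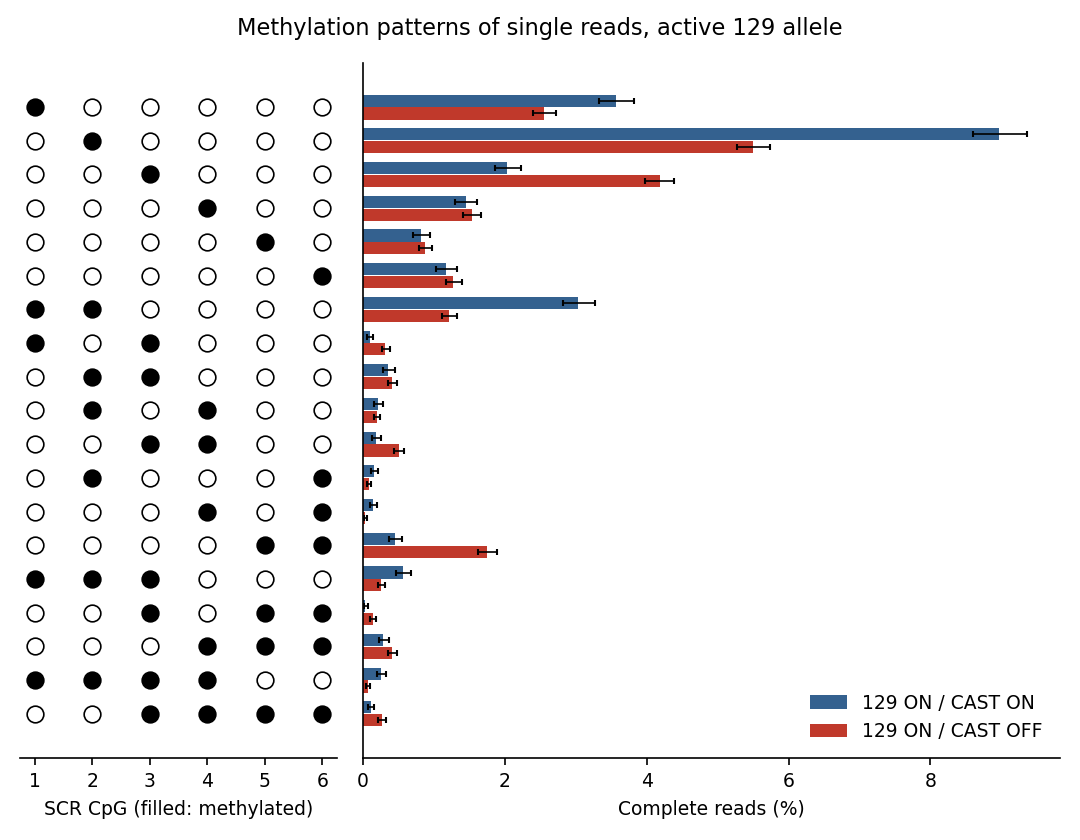
Percentage of complete reads (horizontal axis) with each methylation pattern of the active 129 allele, in 129ON/CASTON (blue) and 129ON/CASTOFF (red) cells with Wilson 95% intervals; filled circles mark methylated CpGs. All 6 patterns with 1 methylated CpG are shown, and the 10 most frequent patterns with 2 to 4 in either library. CpG 2 alone is the longest bar, with 8.97% and 5.50%, and CpGs 5 and 6 reach 0.446% and 1.75%.

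Reads with exactly 2 methylated CpGs carried them mostly at neighbouring positions. Of 1824 such reads in 129ON/CASTOFF cells, 79.6% had adjacent CpGs methylated (77.7% to 81.4%), and of 1107 in 129ON/CASTON cells, 81.3% (78.9% to 83.5%). The pairs at the ends of the stretch, 16 and 10 bp apart, held 60.1% and 68.4% of the reads with 2 methylated CpGs. Which end dominated differed between the libraries. CpGs 1 and 2 were methylated as a pair on 448 reads of 129ON/CASTOFF and 660 of 129ON/CASTON cells, 1.21% and 3.04% of complete reads, a difference of -1.82 points (-2.08 to -1.57). CpGs 5 and 6 were methylated as a pair on 648 and 97 reads, 1.75% and 0.446%, which is 3.93-fold more often in 129ON/CASTOFF cells (95% interval 3.18 to 4.86). The adjusted p was 1.25e-51 for the first pair and 5.85e-48 for the other from Fisher's exact test. CpGs 3 and 4, 41 bp apart, followed on 185 and 39 reads (0.501% and 0.179%, adjusted p = 9.88e-10 from the exact test). CpGs 2 and 3 were found on 152 and 77 reads and did not pass (0.411% and 0.354%, adjusted p = 0.402, exact test). The remaining neighbours, CpGs 4 and 5, were a rare pair, with 19 and 27 reads (adjusted p = 0.00749 from the exact test, named after its values were seen). Among the pairs that skip a CpG there were 115 and 20 reads for CpGs 1 and 3 (adjusted p = 7.46e-08), 71 and 46 for CpGs 2 and 4 (adjusted p = 0.711), 28 and 33 for CpGs 2 and 6 (adjusted p = 0.0155) and 12 and 29 for CpGs 4 and 6 (adjusted p = 4.50e-05, all from Fisher's exact test).

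Neighbours at both ends, like every other pair, were methylated on the same read more often than their separate shares would give. Of reads methylated at CpG 5, CpG 6 was methylated on 72.8% in 129ON/CASTOFF (70.6% to 74.9% of 1658 reads) and on 53.2% in 129ON/CASTON cells (49.5% to 56.8% of 705). Of reads methylated at CpG 1, CpG 2 was methylated on 40.3% (38.1% to 42.5% of 1957) and 56.6% (54.4% to 58.8% of 1944). The product of the 2 CpGs' own shares would give 80.6 reads methylated at both CpG 5 and CpG 6 in 129ON/CASTOFF cells, and 1207 were seen. In 129ON/CASTON cells it would give 24.6, and 375 were seen. For CpGs 1 and 2 the products were 169.6 and 292.9 reads, against 788 and 1100 seen. Relative to the product, CpGs 1 and 2 were thus methylated together 4.65 times as often in 129ON/CASTOFF and 3.76 times in 129ON/CASTON cells, the reverse of the order of the shares above, which also follow CpG 2's own level in each library. All 15 pairs exceeded their product in both libraries, by 1.73 to 15 times in 129ON/CASTOFF and 2.17 to 15.2 times in 129ON/CASTON cells, with CpGs 5 and 6 the highest and CpGs 2 and 6 the lowest. CpGs 1 and 2 did not stand out in this ratio. Among other neighbours, CpGs 3 and 4 reached 5.34 times in 129ON/CASTOFF and 7.96 in 129ON/CASTON cells. CpGs 4 and 5 reached 7.22 and 11.3, and CpGs 2 and 3 were lower, at 2.17 and 3.03. Pairs that are not neighbours lay on both sides of CpGs 1 and 2, as with CpGs 4 and 6 (6.40 and 9.99) and CpGs 2 and 6. The fully methylated reads enter every pair. The shares and ratios in this comparison of neighbours are a description with no test.

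Reads with 2 or more methylated CpGs usually carried them as 1 unbroken run, in 76.1% of 2627 reads in 129ON/CASTOFF (74.5% to 77.7%) and 78.9% of 1726 in 129ON/CASTON cells (76.9% to 80.7%). The share was 64.8% of 15740 reads on the inactive 129 allele (64.1% to 65.6%). Fully methylated reads count as 1 run in these shares, which pool reads with different numbers of methylated CpGs. Among reads with exactly 2, the share was 79.6% on the inactive 129 allele, 79.6% in 129ON/CASTOFF and 81.3% in 129ON/CASTON cells. Among reads with exactly 3, it was 49.6%, 60.8% and 73.1% in the same order. With exactly 4 it was 44.3%, 70.3% and 61.7%, so the order of the active alleles was turned. With exactly 5 it was 27.8%, 43.8% and 47.4%. Runs of 2 to 5 CpGs were then sorted by whether they began at CpG 1 or ended at CpG 6, a grouping chosen after the values were seen and so given without a test of its own. In 129ON/CASTON cells, 862 reads had a run from CpG 1 and 184 a run to CpG 6, 3.97% (3.71% to 4.23%) and 0.846% (0.733% to 0.977%) of complete reads, a ratio of 4.68. In 129ON/CASTOFF cells the order was turned, with 573 reads from CpG 1 and 909 to CpG 6, 1.55% (1.43% to 1.68%) and 2.46% (2.31% to 2.62%), so that runs to CpG 6 were 1.59 times as many. Runs that touched neither end were found on 387 reads of 129ON/CASTOFF (1.05%) and 172 of 129ON/CASTON cells (0.791%). On the inactive 129 allele, runs from CpG 1 were 1.79 times as many as runs to CpG 6, from 2266 and 1268 reads.

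Each run length showed the same direction. Runs of CpGs 1 to 3 were found on 93 reads of 129ON/CASTOFF and 122 of 129ON/CASTON cells, 0.252% and 0.561% (adjusted p = 3.13e-08 from Fisher's exact test). Runs of CpGs 1 to 4 were found on 24 and 55 reads, 0.0650% and 0.253% (adjusted p = 3.13e-08, exact test). Runs of CpGs 1 to 5 were found on 8 and 25 reads (adjusted p = 4.00e-05, exact test). From the other end, CpGs 4 to 6 were methylated on 152 and 62 reads, 0.411% and 0.285% (adjusted p = 0.0283), and CpGs 3 to 6 on 96 and 23 reads, 0.260% and 0.106% (adjusted p = 0.000109, exact test). Runs of CpGs 2 to 6 had 13 and 2 reads and did not pass (adjusted p = 0.106, exact test). Among reads with a gap, those methylated at CpGs 3, 5 and 6 numbered 50 and 7, 0.135% and 0.0322% (adjusted p = 0.000132, exact test).

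**Figure D4:**
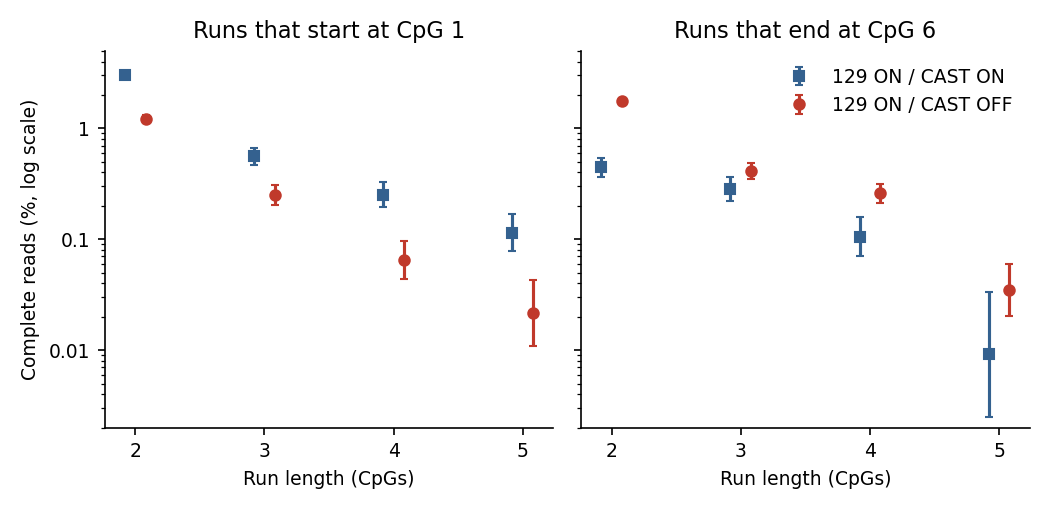
Percentage of complete reads (vertical axis, log scale) of the active 129 allele that carry exactly 1 unbroken run of methylated CpGs starting at CpG 1 (left) or ending at CpG 6 (right), by run length in CpGs (horizontal axis), with Wilson 95% intervals, for 129ON/CASTON (squares) and 129ON/CASTOFF (circles) cells. At all 4 lengths the squares are higher on the left and the circles higher on the right; the largest right-hand gap is at 2 CpGs, 0.446% against 1.75%, and the intervals overlap at 3 and 5 CpGs on the right.

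Reads methylated at 5 or 6 CpGs were rare on the active 129 allele and rarer where CAST was silenced. They numbered 179 in 129ON/CASTOFF cells, 0.484% of complete reads (0.419% to 0.561%), and 200 in 129ON/CASTON cells, 0.920% (0.801% to 1.06%). That is 1 read in 206 and 1 in 109. The difference was -0.44 points (-0.59 to -0.29, p = 4.44e-10 in a two-sided Fisher's exact test, a single test). They are the reads that look most like the inactive 129 allele, on which such reads were 63.2% of 16505. The purity of the sorted populations was not assessed here. Of all methylated calls of the active 129 allele, 8.14% in 129ON/CASTOFF and 13.2% in 129ON/CASTON cells came from these reads, against 46.7% and 45.2% from reads with 1 methylated CpG. Without these reads, CpG 2 was still methylated on 8.25% and 14.3% of reads and CpG 6 on 4.42% and 2.72%.

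Reads fully methylated at all 6 CpGs numbered 131 in 129ON/CASTOFF and 143 in 129ON/CASTON cells, 0.355% (0.299% to 0.421%) and 0.658% (0.559% to 0.774%), a difference of -0.30 points (-0.43 to -0.18, adjusted p = 4.75e-07 from Fisher's exact test). Reads with 5 methylated CpGs were 0.130% (0.0980% to 0.172%) and 0.262% (0.202% to 0.340%, adjusted p = 0.000503, exact test).

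Reads with 5 methylated CpGs mostly lacked CpG 5 or 6 in 129ON/CASTON cells, and were spread over all 6 CpGs in 129ON/CASTOFF cells. In 129ON/CASTON cells, 25 of the 57 reads lacked CpG 6 and 21 lacked CpG 5, while 3 each lacked CpG 2, 3 or 4, and 2 lacked CpG 1. CpG 5 or 6 was thus the unmethylated one on 80.7% (exact binomial 95% interval 68.1% to 90.0%). In 129ON/CASTOFF cells, 13 of the 48 reads lacked CpG 1 and 11 lacked CpG 2. A further 8 lacked CpG 6, 7 lacked CpG 4, 6 lacked CpG 3 and 3 lacked CpG 5, so that CpG 5 or 6 was the unmethylated one on 22.9% (12% to 37.3%) and CpG 1 or 2 on 50% (35.2% to 64.8%). Of these patterns, those lacking CpG 6 (adjusted p = 4.00e-05) and lacking CpG 5 (adjusted p = 1.79e-06) passed Fisher's exact test over patterns. Those lacking CpG 1, 2 or 4 did not pass (adjusted p = 0.106, 0.380 and 0.827, exact test), and that lacking CpG 3, with 6 and 3 reads, was below the minimum.

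The inactive 129 allele had another profile. There, 1677 of 4093 reads with 5 methylated CpGs lacked CpG 3, which is 41.0% (39.5% to 42.5%), and 19.7% lacked CpG 6. On the inactive CAST allele of the 129ON/CASTOFF library, 540 of 542 such reads lacked CpG 2. That pattern was found on 11 reads of the active 129 allele in 129ON/CASTOFF and 3 in 129ON/CASTON cells, 0.0298% and 0.0138% of complete reads, and did not pass (adjusted p = 0.380 from Fisher's exact test). How many CAST reads were assigned to the 129 allele was not tested.

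**Figure D5:**
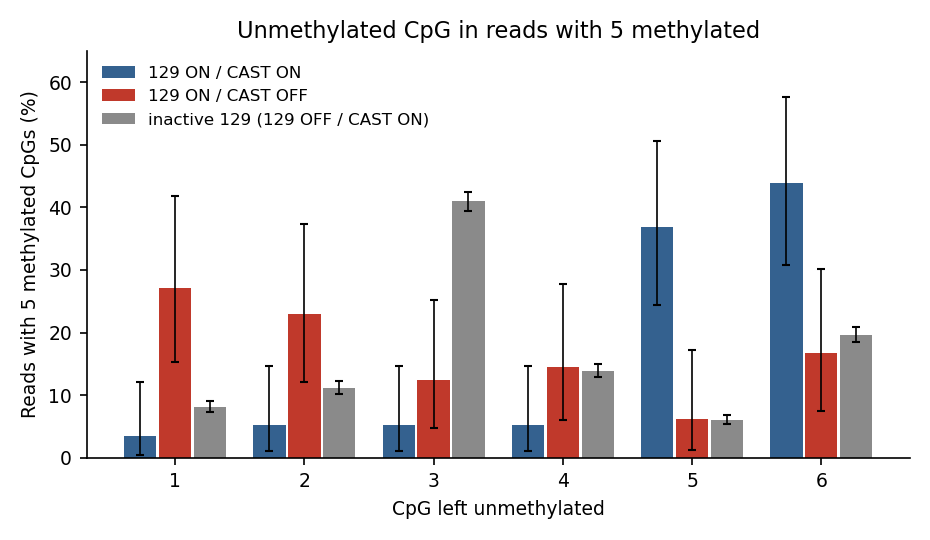
Percentage of reads with 5 methylated CpGs (vertical axis) by the CpG left unmethylated (horizontal axis), with exact binomial 95% intervals, for the active 129 allele of 129ON/CASTON (blue, 57 reads) and 129ON/CASTOFF (red, 48 reads) cells and the inactive 129 allele (grey, 4093 reads). Blue bars are highest at CpGs 5 and 6 and the grey bar at CpG 3; the red bars are tallest at CpGs 1 and 2, with intervals that overlap those of the other red bars.

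Reads left out because a call was missing were 1.90% of the reads in 129ON/CASTOFF and 1.94% in 129ON/CASTON cells, and 705 of 715 and 428 of 431 of them lacked exactly 1 CpG. The missing CpG was most often CpG 6 (278 and 161 reads) or CpG 1 (169 and 100 reads), the outermost of the stretch. Their remaining calls were methylated at 5.47% and 4.88%, and adding them changed no call at the CpGs.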

How the data were processed

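DNA of 200000 sorted cells per population was bisulfite converted, and the SCR region was amplified and sequenced on the MiSeq Nano, 1 library per population. Alignment by the authors was to mm10 and used Bismark (version 0.22.3 in the submitters' processing notes), split them by allele with 2 single-nucleotide polymorphisms, and deposited methylated or unmethylated calls per read and CpG, per the file headers. The allele was taken from the name of each set of calls. Deposited read names are plain numbers without flow cell positions.

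Positions needed 50 calls in every set, which left 6 CpGs. The 94 calls at other positions of the active 129 allele (0 methylated, which allows up to 3.19%) were left out. The calls were counted with Python 3.11.15, numpy 2.4.6, scipy 1.17.1 and matplotlib 3.10.9. Two-sided Fisher's exact tests, tried first on simulated data, had a threshold of 0.05 after Benjamini-Hochberg adjustment. The simulated reads were independent, so that trial did not cover reads counted more than once or spread between libraries. Shares have Wilson and differences Newcombe 95% intervals, and ratios an interval on the log scale. Patterns named in the text were all those with 1, 5 or 6 methylated CpGs and the 10 most frequent with 2 to 4 in either library. The members, comparisons and alternatives were chosen with earlier results of these data known.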

Additional observations from a re-analysis of the deposited data

Results flagged for a closer look

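Between the 129ON/CASTON library and the library in which the other homolog was silenced, the differences at 3 CpGs had opposite signs on the active 129 and active CAST alleles. CpG 1 changed by -3.65 points on 129 and by 4.51 points on CAST, CpG 2 by -6.40 and 2.29 points, and CpG 4 differed by -0.31 and 3.99 points. The value at CpG 4 on 129 did not pass the test (-0.64 to 0.02) and turned to 0.12 points without reads with 5 or 6 methylated CpGs. At CpG 2 the CAST allele was methylated on 12 of 1559 reads (0.770%) even where it was silenced, against 60.2% to 75.2% at its other CpGs. On the active CAST allele, CpG 2 was higher than that, with 1.74% in 129ON/CASTON and 4.03% in 129OFF/CASTON cells. Calls at CpG 2 of CAST thus did not follow silencing as those at its other CpGs did. At CpGs 3, 5 and 6 both alleles were higher beside a silenced homolog, by 2.02, 1.24 and 1.37 points on 129 and 9.40, 5.67 and 7.64 points on CAST. The difference between the alleles was not tested, each value comes from 1 library a side, and both alleles share the 129ON/CASTON library.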

How the results depend on the processing

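No paired analysis was possible because each population is 1 library. Of 34 values under other settings, 22 led to the same call or moved by less than their interval, 9 moved further and 3 changed sign. Minimums of 10 or 500 calls, every call counted, and other cutoffs for highly methylated reads (all 6, 4 or more, all 5 without CpG 2) changed no call. With a difference of at least 2 points also required, 3 CpGs passed in place of 5. Without CpG 2, mean methylation was 5.09% (129ON/CASTOFF) and 4.95% (129ON/CASTON), its difference turned to 0.14 points, that of unmethylated reads turned to -0.57 points, and 2 of 6 classes passed. Of the 22 patterns with at least 50 reads, 16 passed. Reads in 1 run made up 69.2% and 81.3% with CpGs 5 and 6 taken as 1 unit, and 83.8% and 76.0% without CpG 2, so the order of the libraries in this share depends on CpG 2. As alternatives chosen after seeing the data, leaving out reads with 5 or 6 methylated CpGs turned the difference at CpG 4 to 0.12 points (adjusted p = 0.443, Fisher's exact test), and over reads with any methylation 27 of 44 patterns passed, 24 of which were also among the 25 and in the same direction. Values by flow cell tile were not run, since the read names give no tile. Depth limits the rare patterns, several of which rest on fewer than 10 reads a library.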
